A study of Mus musculus with 12 samples.

Results

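The cerebral cortex of female mouse pups whose mothers had received bisphenol A (BPA) was compared with that of female pups of mothers given the vehicle. The arrays were chosen by their labelled treatment and sex alone, which gave 6 of the 12 arrays of the series, 3 per group, and every mouse gene on them was considered. BPA dams were dosed orally every day, from embryonic day 0, with 500 µg of the compound per kg in ethanol at 0.01%, and vehicle dams took that ethanol with no BPA. Exposure went on through lactation, and the cortex was taken at 3 weeks of age. There were 3 dams per treatment, each giving a pup of either sex, so each female array stands for 1 litter. Neither the strain nor a part of the cortex is named in the labels. The remaining 6 arrays, from the males of the same design, serve below only to test whether a difference in females departs from that in males.

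BPA is a monomer of polycarbonate plastics and epoxy resins that binds estrogen receptors weakly and passes to the young through placenta and milk. The cortex in the weeks after birth is forming synapses and myelin, and its vessels are sealing into the blood-brain barrier, in which claudin-5 closes the junctions between endothelial cells. Interferon-stimulated genes are the antiviral genes switched on when type I interferon activates its transcription factor complex, which contains IRF9, and brain cells keep them on at a low tonic level. Immediate early genes such as Fos and Arc are transcribed within minutes of neuronal firing.

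Levels are log2 of the processed array signal minus the array's 75th percentile, so 0 is that percentile and a difference of 1 is a 2-fold difference. Each array held 59305 mouse spots and none was saturated. The share of spots that cleared background clearly was 64.9% to 67.0% on 5 of the 6 arrays and 73.5% on vehicle replicate 1. The deposited processed values of that array correlated with its scanner values at only r = 0.224 across probes, against 0.959 to 0.978 for the other 5 female arrays. Its scanner values are therefore in the main fit, and values without it are given beside part of the results, not all. The first principal component, with 34.1% of the variance, placed vehicle replicates 1 and 2 (−25.7 and −22.6) opposite vehicle replicate 3 (28.0), with the BPA arrays from −1.6 to 12.6 between them. The vehicle group was thus the more variable of the 2 groups, and values without replicate 3 are given beside the results that it moves most. The vehicle arrays shared slide 1 and the BPA arrays slide 2, so slide and treatment cannot be told apart in any difference below.

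The arrays matched their labels. The cortical neuron genes Slc17a7, Tbr1 and Neurod6 were well above background on all 6 arrays, as were Snap25, Gad1, the astrocyte gene Aqp4 and the myelin gene Mbp. Xist was above background on all 6 female arrays and on 0 of the 6 male arrays. Of the Y-linked genes, Ddx3y, Eif2s3y and Uty were above background on 0 female arrays and 6 male arrays, and Kdm5d on 2 female arrays, where its highest level was −5.38 against −3.97 or more in males.

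No gene passed. Of 24757 genes tested with limma, 0 (0%) had an adjusted p under 0.05, and the smallest adjusted p was 0.486. Before adjustment, 1550 genes (6.26%) had a p under 0.05, of which 902 (3.64% of all) stood higher and 648 (2.62%) lower after BPA. Without vehicle replicate 1 there were 0 calls and 1209 such genes (4.88%), and without vehicle replicate 3 there were 0 calls and 3136 such genes, with a smallest adjusted p of 0.0822. For 11.7% of genes the 3 BPA arrays did not overlap the 3 vehicle arrays, 7.08% higher and 4.67% lower. These shares are the background for every count below. Differences were small: the median over all genes was 0.01, the 5th and 95th percentiles were −0.30 and 0.26, and the median standard error (SE) was 0.09. The genes described next are those of smallest p with groups that did not overlap, named so that their values can be seen; none of them passed.

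Cldn5, the claudin of the brain endothelial tight junction (probe at chromosome 16, 18778046 to 18778105, build mm9), had the smallest p of them. Its level was 2.77, 2.79 and 2.80 in the vehicle females and 3.26, 3.33 and 3.38 in the BPA females. The 3 vehicle values lay within 0.03 of each other and every BPA value was higher by more than 0.4. The difference was 0.54 (SE 0.06, 95% interval 0.40 to 0.68, limma adjusted p 0.569) and 0.53 without vehicle replicate 1. In males Cldn5 was 2.94, 3.16 and 2.95 with vehicle and 3.17, 3.16 and 2.98 with BPA, so all 6 male values fell between the female groups. The difference between the sexes in the BPA effect was 0.45 (SE 0.11, limma unadjusted p 0.00231, adjusted p 1.00).

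Other genes higher after BPA with small spread included Edc4, a scaffold of the mRNA decapping complex. Edc4 stood at 3.19, 3.22 and 3.19 in vehicle females and at 3.49, 3.52 and 3.53 in BPA females, a difference of 0.32 (SE 0.05). Abcg1, an exporter of cholesterol from cells (chromosome 17, 31252580 to 31252639), was at 2.30, 2.33 and 2.23 against 2.68, 2.58 and 2.60, a difference of 0.33 (SE 0.06). Dph7, an enzyme of the diphthamide pathway that modifies translation elongation factor 2, was at −0.01, 0.09 and 0.11 against 0.49, 0.46 and 0.47. In each of these genes the lowest BPA value lay above the highest vehicle value by more than the spread within either group. Without vehicle replicate 1 the differences were 0.31 for Edc4, 0.34 for Abcg1 and 0.37 for Dph7. The fatty acid desaturase Fads2 differed by 0.36 (SE 0.07), the GTPase-activating protein Arhgap29 by 0.36 (SE 0.06), the nuclear protein Pcnp by 0.29 (SE 0.05) and Tmem80 by 0.30 (SE 0.05), and the single other probe of Fads2, Arhgap29 and Tmem80 went the same way at 0.17, 0.15 and 0.05. The chromatin protein Sfmbt1 (0.41, SE 0.06) and the kinase adaptor Dok7 (0.34, SE 0.06) each had a second probe that did not, at −0.03 and −0.07.

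Dim genes on the higher side are less certain, and 3 of them entered the test only through the BPA group, where they are high. Slc47a2, an organic cation and proton exchanger (chromosome 11, 61115133 to 61115192), was at −5.41, −5.92 and −5.53 against −4.59, −4.41 and −4.60. Its probe was above background on 1 of the 3 vehicle arrays, so the vehicle values are mostly at background and no size is read from them. Haspin, a histone H3 kinase of mitosis, was likewise above background on 1 vehicle array and on all 3 BPA arrays. The kallikrein Klk1b5 was not well above background on any vehicle array and was on all 3 BPA arrays. It was at least 1.37-fold higher in BPA females, taking each vehicle array's lowest above-background signal, or the gene's own where higher, as the limit (measured means −6.37 and −5.30). The lactate transporter Slc16a8 (0.40, SE 0.06) and AI467606 (0.42, SE 0.08) were dim but above background on all 6 arrays.

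On the lower side, Ifit3 of the interferon response came first and is described with its group. Zdhhc22, a palmitoyltransferase that adds fatty acid to membrane proteins (chromosome 12, 88329164 to 88329223), was at 0.80, 1.12 and 0.69 in vehicle females and at 0.36, −0.04 and −0.06 in BPA females. The groups did not overlap but each spread over more than 0.4, and the difference was −0.78 (SE 0.16, limma adjusted p 0.759). The transcription factor Tcf12 (−0.34, SE 0.07; other probe −0.04), the ceramide synthase Cers6 (−0.34, SE 0.07) and the transcriptional repressor Bcl6b (−0.30, SE 0.06) were lower, as was Plac8 (−0.50, SE 0.08; other probe −0.21). Mkrn3, an imprinted gene known as a brake on puberty, was at −1.54, −1.51 and −1.63 against −1.83, −1.92 and −1.88. Its difference was −0.32 (SE 0.06), and its other probe was at −0.24. The active-zone scaffold Erc1 differed by −0.30 (SE 0.05) but by 0.08 on its other probe, and Fam133b by −0.25 (SE 0.05) but by −0.00. The remaining genes of this set were the dim Smr2 (−0.78), Nepn (−0.69, above background on 2 of the BPA arrays), Ccdc15 (−0.60), Slfn10-ps (−0.55) and Fam170b (−0.49).

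**Figure D1:**
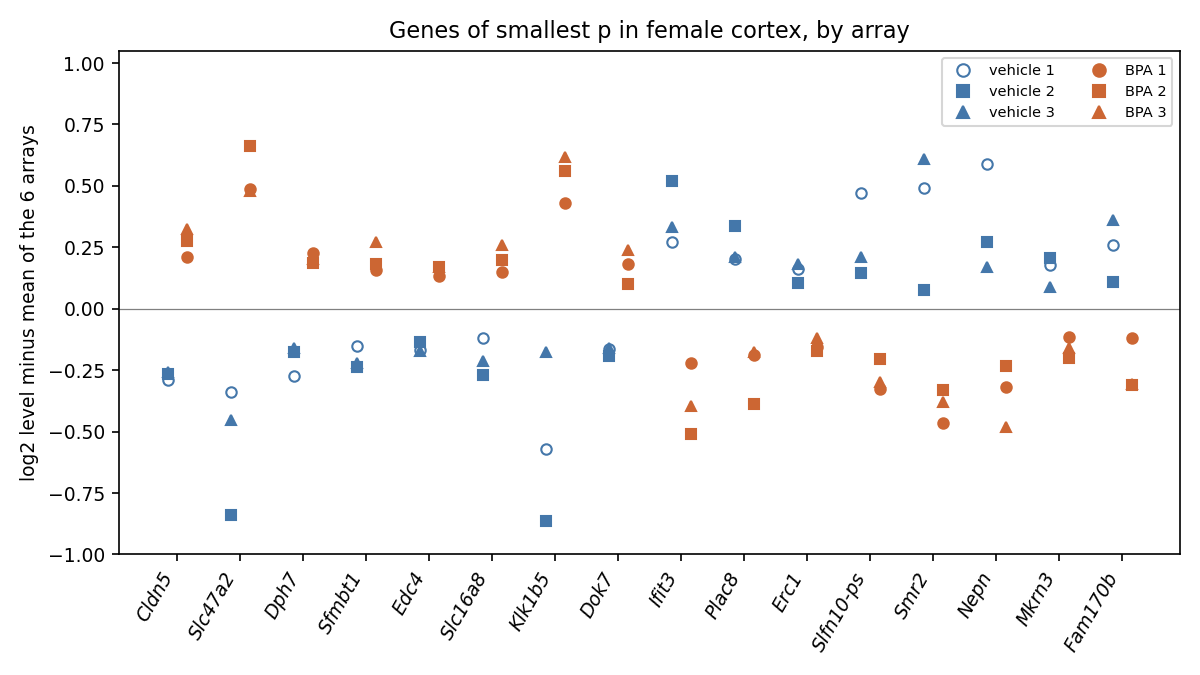
Log2 level of each gene on each female array minus the gene's mean over the 6 arrays (vertical axis), for the 8 genes of smallest p in either direction whose groups did not overlap; blue marks vehicle, with replicate 1 open, and orange BPA. Cldn5 shows the narrowest vehicle group, all 3 values within 0.03; the vehicle points of Slc47a2 and Klk1b5 are mostly or all at background, so their gaps are not to be set against the others.

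Cldn5 led a vascular group most of whose members were slightly higher. Of 32 endothelial and barrier genes measured, 26 were higher after BPA (52.6% of all genes were), 5 did not overlap and were higher (7.08% of all genes) and 1 did not overlap and was lower. Their median difference was 0.09, against 0.01 over all genes, and 0.11 without vehicle replicate 1. Cdh5, the cadherin of endothelial junctions, stood at −0.74, −0.77 and −0.68 against −0.57, −0.45 and −0.61 (0.18, SE 0.07). Lsr, a protein of tricellular junctions, was at 1.84, 1.98 and 1.81 against 2.01, 2.24 and 2.09 (0.24, SE 0.09). The endothelial transcription factor Sox18 was 0.47 higher (SE 0.19), with groups that overlapped.

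General markers of endothelium and its junctions, named after their values were seen, did not share the size seen for Cldn5. Pecam1 differed by 0.07 (SE 0.07), Flt1 by 0.02 (SE 0.07) and Ly6c1 by 0.02 (SE 0.07). The growth factor receptor Kdr was at −0.19 (SE 0.09) and the glucose transporter Slc2a1 at −0.18 (SE 0.11). Tight junction partners were nearer to 0 too, with Ocln at 0.12 (SE 0.07) and Tjp1 at 0.03 (SE 0.07). In whole tissue, fewer or more cells of a type and less or more RNA per cell cannot be told apart, here or in any list below. The median level of the endothelial list was −0.05, −0.09 and 0.03 on the vehicle arrays and 0.00, 0.05 and 0.11 on the BPA arrays, so vehicle replicate 3 overlapped the BPA group. Among 15 pericyte and smooth muscle markers 12 were higher (median 0.12), with Pdgfrb, the receptor that recruits pericytes, at 0.20 (SE 0.07) and Tagln at 0.18 (SE 0.07). Among 22 basement membrane and matrix protease genes 16 were higher (median 0.14). Of these 16, 6 did not overlap (7.08% of all genes were higher without overlap). Col4a1, a chain of the vessel basement membrane, was at 0.15 (SE 0.06), and the collagenase Mmp2 at −4.05, −3.70 and −3.54 against −2.92, −3.35 and −3.10 (0.63, SE 0.17). Mmp2 differed by 0.00 in males, and the difference between the sexes had an unadjusted p of 0.0108 (limma, adjusted p 1.00).

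Genes of the type I interferon response were lower after BPA in most cases. Of 42 measured, 36 were lower (47.4% of all genes were), 13 did not overlap and were lower (4.67% of all genes), 0 did not overlap and were higher, and 13 had an unadjusted p under 0.05, all lower (2.62% of all genes). The median difference was −0.25, and −0.20 without vehicle replicate 1, when 35 of 42 were lower while 53% of all genes were higher, and 17 did not overlap on the lower side (8.07% of all genes then). No member passed. The list was chosen with earlier results of these data known and its direction is not independent evidence.

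Ifit3, which encodes an antiviral tetratricopeptide protein that binds the adaptor MAVS (chromosome 19, 34663105 to 34663164, mm9), led it. Ifit3 was at 0.21, 0.46 and 0.27 in vehicle females and at −0.28, −0.57 and −0.46 in BPA females. All 3 BPA values lay below every vehicle value, and the difference was −0.75 (SE 0.10, limma adjusted p 0.739), and −0.80 without vehicle replicate 1. Its close copy Ifit3b was at −1.49, −1.35 and −1.27 against −2.03, −1.72 and −2.15 (−0.60, SE 0.13; other probe −0.67); the copies are near-identical, and how far each probe also reads the other was not tested. Mx2, a dynamin-like antiviral GTPase, was at −1.24, −1.32 and −1.14 against −1.47, −1.56 and −1.62 (−0.32, SE 0.07). Bst2, the tetherin that holds virions at the cell surface, was at 0.36, 0.43 and 0.38 against −0.03, 0.21 and 0.12 (−0.29, SE 0.08). Xaf1, an interferon-induced promoter of apoptosis, was lower with no overlap between the groups (−0.34, SE 0.11). Lgals3bp, a secreted galectin ligand, differed by −0.40 (SE 0.13; other probe −0.34), with vehicle replicate 3 level with BPA replicate 2 at 1.79.

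Members named after their values were seen fill in the group. Usp18, which removes ISG15 from proteins and damps the interferon receptor, was at −1.44, −1.43 and −1.65 against −1.98, −1.78 and −2.47. Isg15, the ubiquitin-like modifier itself, ran from 1.47 to 1.53 in vehicle females and stood at 0.97 on BPA replicate 1 and 1.44 on BPA replicate 2, so BPA replicate 2 nearly met the vehicle group. Irf9, the DNA-binding part of the interferon complex, was at 0.84, 1.01 and 0.72 against 0.57, 0.67 and 0.43. Its partner Stat2 was nearer to 0, at −0.10 (SE 0.08). Members with little or no difference included Ifitm3 (−0.04), Cmpk2 (0.01), Oas1b (0.02) and Trim25 (0.04).

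Levels of the interferon-stimulated genes were uneven among the BPA arrays. The list's median level was 0.10, 0.17 and 0.05 on the vehicle arrays and −0.16, 0.05 and −0.17 on the BPA arrays, with BPA replicate 2 at the level of vehicle replicate 3. Without BPA replicate 2, 39 of 42 members were lower and the median was −0.31. In males the median BPA difference of the same genes was −0.04 with 18 of 42 higher, and −0.09 without BPA male replicate 3, whose deposited and scanner values correlated at 0.218. The test of the sex difference had an unadjusted p under 0.05 for 2 members (2.19% of all genes) and passed for 0; for Ifit3 it was −0.51 (SE 0.16, limma unadjusted p 0.0115, adjusted p 1.00). Markers of microglia, a cell type known to respond to interferon, had a median difference of −0.00 over 21 genes (0.08 without vehicle replicate 3), with array levels from −0.06 to 0.12 in vehicle and −0.01 to 0.03 in BPA females. Within that list the lysosomal Laptm5 was lower, at 1.00, 0.99 and 0.97 against 0.66, 0.65 and 0.83 (−0.27, SE 0.07), and the purine receptor P2ry13 was higher at 0.52 (SE 0.21). The part of microglia in the interferon genes was not tested otherwise.

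Neighbouring branches had medians nearer to 0. Among 17 measured interferon receptors, sensors and kinases the median was −0.02, and 12 were lower (47.4% of all genes were). In that list 2 did not overlap and were lower (4.67% of all genes), and 1 did not overlap and was higher (7.08%). The receptor kinase Tyk2 was at −0.18 (SE 0.06) and the RNA sensor Tlr7 at 0.20 (SE 0.07). Among 24 antigen presentation and interferon gamma GTPase genes the median was 0.03, with 16 higher and 8 lower. Gbp4, a guanylate-binding GTPase, was higher, at −3.90, −3.80 and −3.30 against −2.88, −2.41 and −2.80 (0.97, SE 0.20), while its relatives Gbp3 (−0.28), Gbp7 (−0.17) and Irgm1 (−0.19) were lower.

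**Figure D2:**
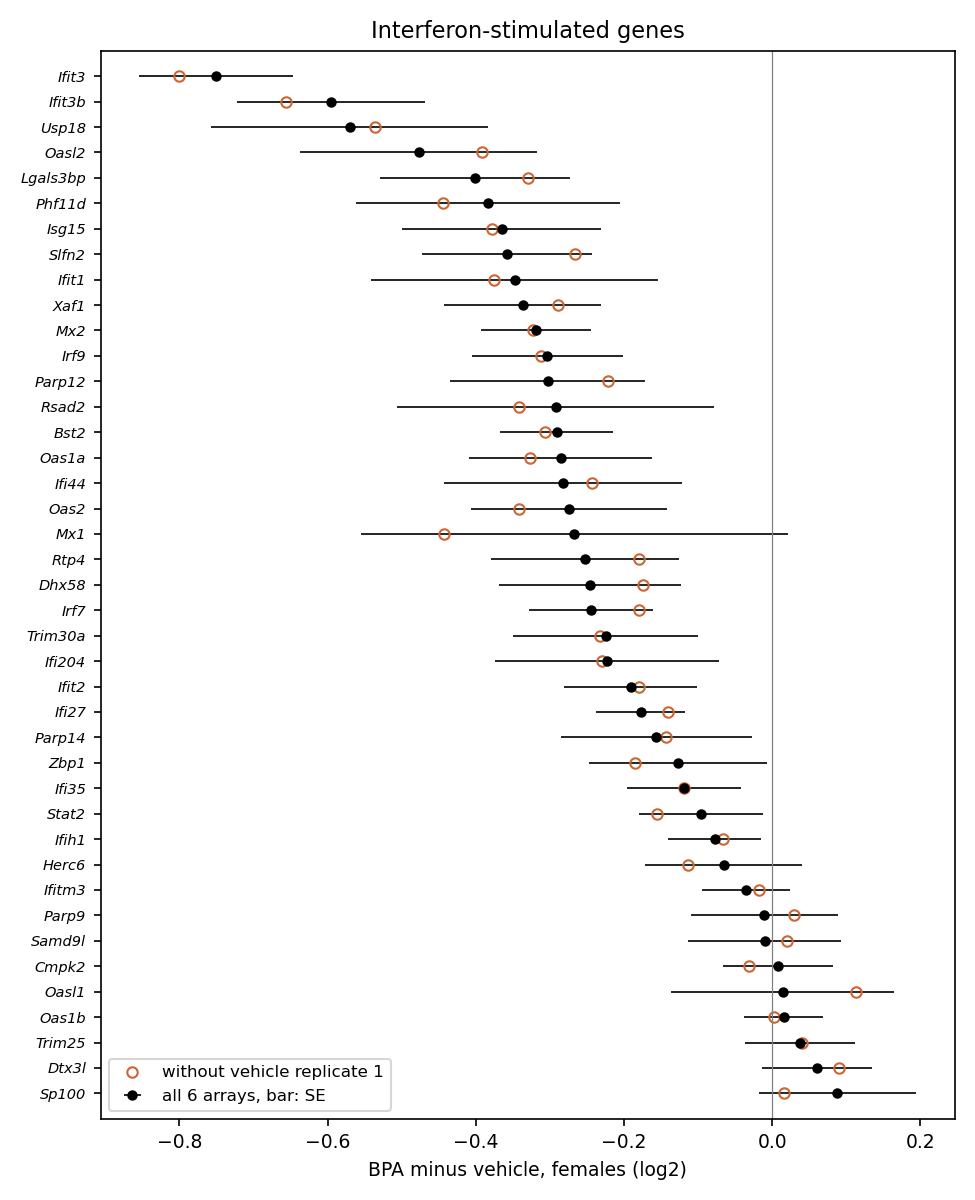
Log2 difference, BPA minus vehicle females, for the interferon-stimulated genes measured, 1 of them not drawn (rows, ordered by size); filled points with bars are the difference and its SE over all 6 arrays, and open points leave out vehicle replicate 1. Ifit3 lies farthest below 0 at −0.75, and most filled and open points lie below 0.

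The upstream stretches of leading members are shown because the interferon complex binds a short element there, the interferon-stimulated response element. Each is the 250 bases before the RefSeq start, on the gene's strand, from RefSeq on GRCm38.p6, a later build than that of the array files: Ifit3 at chr19:34583279-34583528 (plus strand), Ifit3b at chr19:34607707-34607956 (plus strand) and Isg15 at chr4:156200819-156201068 (minus strand). Capitals mark matches to the element, searched as GAAA and GAAA in 1 direction with any 2 bases between, on either strand.
Ifit3: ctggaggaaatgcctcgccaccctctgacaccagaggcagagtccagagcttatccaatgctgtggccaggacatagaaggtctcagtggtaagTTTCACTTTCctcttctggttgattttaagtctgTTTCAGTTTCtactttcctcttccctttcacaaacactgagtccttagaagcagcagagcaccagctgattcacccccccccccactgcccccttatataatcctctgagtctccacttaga
Ifit3b: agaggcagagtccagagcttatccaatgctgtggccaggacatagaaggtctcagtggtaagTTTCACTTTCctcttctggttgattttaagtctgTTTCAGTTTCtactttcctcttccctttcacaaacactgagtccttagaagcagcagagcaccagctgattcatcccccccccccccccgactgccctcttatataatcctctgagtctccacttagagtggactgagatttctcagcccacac
Isg15: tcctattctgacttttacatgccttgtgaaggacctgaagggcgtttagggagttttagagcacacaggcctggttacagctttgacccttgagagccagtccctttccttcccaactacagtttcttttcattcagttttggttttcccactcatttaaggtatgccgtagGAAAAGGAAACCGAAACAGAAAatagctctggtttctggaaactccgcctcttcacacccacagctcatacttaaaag
Ifit3 and Ifit3b hold 2 matches each, with the same letters. The first match lies at −156 from the RefSeq start in Ifit3 and at −188 in Ifit3b, so the windows are shifted against each other. In a global alignment of the stretches 217 of 250 bases (86.8%) were identical. Bases at the ends that only 1 window holds count there as not identical, so this share is not a measure of divergence. Isg15 holds 3 matches that overlap one another in 1 run. Over all 27025 genes with a promoter entry, 3.46% held a match in this window. Of the 42 measured interferon-stimulated genes 29 had an entry and 9 of these (31.0%) held a match. Among the members that were lower without overlap it was 5 of 10, and among the others 4 of 19. That split was made on the values of this same comparison, and the copies Ifit3 and Ifit3b are both among the 5. It therefore cannot tell whether the element goes with a lower level. A match is a description of letters, and no match says only that they are not in this window.

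Estrogen receptor genes, the receptors through which BPA is best known to act, differed little. Esr1 was dim, at −4.31, −4.03 and −4.55 in vehicle females and −4.21, −4.15 and −4.17 in BPA females, with a difference of 0.12 (95% interval −0.21 to 0.45). Esr2 was at 3.23, 3.00 and 3.23 against 3.02, 3.00 and 2.99, a difference of −0.15 (95% interval −0.35 to 0.04). In both genes the groups overlapped, and Esr1 was at −0.01 without vehicle replicate 3. The Esr2 probe, the only one kept, read above the cortical neuron gene Slc17a7, which ran from 2.40 to 2.61 on the female arrays. Whether that probe reads only Esr2 was not tested. The membrane estrogen receptor Gper1 differed by 0.18 (95% interval −0.10 to 0.47), the estrogen-related receptor Esrrg by −0.00 (−0.15 to 0.14) and the progesterone receptor Pgr by 0.11 (−0.19 to 0.41), the last at 0.00 without vehicle replicate 1 and 0.22 without vehicle replicate 3. Aromatase, Cyp19a1, was dim and at 0.12 (SE 0.21), or 0.32 without vehicle replicate 1. The steroid sulfatase Sts was 0.12 higher (SE 0.05). Intervals this wide still hold differences of up to 0.45 for Esr1 and 0.47 for Gper1.

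Genes known to respond to estrogen had a median difference of −0.00 over 21 measured, with 10 higher. Pdzk1, a scaffold protein induced by estrogen in other tissues, was at −3.86, −4.16 and −3.92 against −3.48, −3.61 and −3.77 (0.36, SE 0.11; other probe 0.22). The survival factor Bcl2 was at 0.10, 0.12 and −0.02 against −0.13, −0.09 and −0.18 (−0.20, SE 0.06). These were the only members whose groups did not overlap, 1 in either direction. They make up 9.52% of the list, no more than the 11.7% of all genes without overlap. A full estrogen response element, GGTCA and TGACC with any 3 bases between, was in 0 of the 19 members' 250-base stretches with an entry and in 0.0666% of all genes' stretches.

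Medians of other nuclear receptor groups were small too, though in some lists most members were higher. Thyroid hormone receptors, transporters and targets had a median of 0.06, with 14 of 17 higher (52.6% of all genes were) and 0 without overlap (11.7% of all genes). Thra was at −0.00 (95% interval −0.13 to 0.13). Thrb was at 0.13 (−0.15 to 0.42), or 0.05 without vehicle replicate 1 and 0.24 without vehicle replicate 3. The aryl hydrocarbon receptor Ahr was at 0.08 (−0.20 to 0.35), and the 14 genes of that and related xenobiotic receptors had a median of −0.04. Liver X receptor genes of sterol efflux had 12 of 14 members higher (52.6% of all genes were), led by Abcg1 and its activator Nr1h3 (0.15, SE 0.06). Their median was 0.04. Cholesterol synthesis genes had a median of −0.04 over 24 (−0.08 without vehicle replicate 1 and 0.01 without vehicle replicate 3), with the sterol demethylase Cyp51 at −0.17 (SE 0.06).

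Glucocorticoid-responsive genes were lower in 17 of 23 cases (47.4% of all genes were), with a median of −0.18. Among males the list went the other way, with 17 of 23 higher after BPA and a median of 0.14. Map3k6, a stress kinase, was at 0.07, −0.04 and −0.41 against −0.69, −0.70 and −0.45 (−0.49, SE 0.14; other probe −0.45). In males it was 0.52 higher, and the difference between the sexes had an unadjusted p of 0.00545 (limma, adjusted p 1.00). The phagocytic receptor Mertk was 0.16 higher (SE 0.06), and the receptor gene Nr3c1 was at 0.19 (95% interval −0.05 to 0.43), or 0.12 without vehicle replicate 1. The list's level was 0.21 and 0.25 on vehicle replicates 1 and 2 but −0.12 on vehicle replicate 3, within the BPA range of −0.12 to −0.05. Its median was −0.32 without vehicle replicate 3 and −0.08 without vehicle replicate 2.

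Enzymes that write and erase DNA methylation included members that differed on both sides. Tet1, which oxidises methylated cytosine, was at 0.96, 0.92 and 1.00 in vehicle females and at 0.80, 0.60 and 0.66 in BPA females. The groups did not overlap, and the difference was −0.27 (SE 0.07, 95% interval −0.45 to −0.10, limma adjusted p 0.759); its 2 other probes were at −0.30 and −0.10. Dnmt3a, the de novo methyltransferase of neurons, ran from 3.92 to 4.09 in vehicle females against 3.76, 3.81 and 3.80 (−0.21, SE 0.06). The zinc finger protein Zbtb24 was at −0.63, −0.67 and −0.74 against −0.54, −0.39 and −0.48 (0.21, SE 0.06). Over the 20 members the median was −0.02. Among 23 histone deacetylases and methylases the median was −0.02 too, with Hdac7 at 0.20 (SE 0.05).

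Xist, the RNA that coats the inactive X chromosome, was at 0.93, 0.98 and 0.88 against 0.85, 0.70 and 0.75. The groups did not overlap and the difference was −0.16 (SE 0.06); its other probe was at −0.08. Of the genes that escape X inactivation, Kdm6a was at −0.14 (SE 0.08; −0.07 without vehicle replicate 3) and Kdm5c at 0.02 (SE 0.05), and the 11 genes of the list had a median of −0.05. X-linked intellectual disability genes had a median of 0.02 over 25, with the synaptic exchange factor Iqsec2 at 0.18 (SE 0.06).

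Clock genes went both ways. Arntl, which encodes the activator BMAL1, was higher, at 0.81, 0.71 and 0.80 against 1.03, 1.20 and 1.10 (0.33, SE 0.07; 0.35 without vehicle replicate 1). Dbp, a clock output factor driven by BMAL1, was lower, at 4.68, 4.82 and 4.99 against 4.45, 4.51 and 4.58 (−0.31, SE 0.09; other probe −0.25). The repressors Ciart (−0.49, SE 0.15) and Per2 (−0.52, SE 0.19) were lower too, Per2 with vehicle replicate 3 inside the BPA range. Of 17 clock genes 1 did not overlap and was higher (7.08% of all genes), and 2 did not overlap and were lower (4.67% of all genes). Arntl and Dbp differed by 0.28 and −0.45 in males. The hour of dissection is not stated in the labels.

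Medians of the neuronal signalling lists were near 0. Synaptic vesicle and postsynaptic genes had a median of −0.01 over 25 and glutamate receptor subunits −0.01 over 22, with the metabotropic receptor Grm8 at −0.16 (SE 0.07). GABA receptor subunits and chloride transporters had a median of 0.07, with 13 of 16 higher (52.6% of all genes were). Of these, 4 did not overlap (7.08% of all genes were higher without overlap). The median was 0.03 without BPA replicate 3, and 10 of 16 were higher without vehicle replicate 3. Slc12a5, the potassium and chloride exporter that makes GABA inhibitory, was at 6.76, 6.85 and 6.94 against 6.85, 6.87 and 6.95, a difference of 0.04 (SE 0.07). Scg3, a secretory granule protein, was at 4.87, 4.92 and 4.91 against 5.13, 5.21 and 5.21 (0.29, SE 0.05).

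Interneuron markers went both ways. The stress peptide Crh was at 1.35, 1.45 and 1.22 against 1.60, 1.71 and 1.68 (0.32, SE 0.08), and the peptide Vip was 0.20 higher (SE 0.08). Lhx6, a transcription factor of parvalbumin and somatostatin cells, was at 4.68, 4.64 and 4.73 against 4.46, 4.51 and 4.24 (−0.28, SE 0.09), but 0.17 on its other probe. Upper-layer neuron markers had a median of 0.09 over 15, and deep-layer markers 0.02 over 17 with the corticothalamic repressor Tle4 at 0.27 (SE 0.09). Astrocyte markers had a median of 0.01 over 19, with Agt at 0.29 (SE 0.11) and Sox9 at 0.18 (SE 0.07). Of oligodendrocyte precursor genes the matrix proteoglycan Vcan was at −0.26 (SE 0.06), but its other probes ran from −0.14 to 0.17.

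Markers of striatal projection neurons, which lie beneath the cortex, were higher in BPA females. Of 27 measured, 25 were higher (52.6% of all genes were) and 7 did not overlap and were higher (7.08% of all genes). A limma unadjusted p under 0.05 was found for 9, all higher (3.64% of all genes). The median was 0.37, and 0.28 without vehicle replicate 1. The dopamine receptor Drd1 was at −0.85, −0.64 and −0.69 against −0.22, −0.49 and −0.28 (0.40, SE 0.10, or 0.34 without vehicle replicate 1). The opioid precursor Penk was at 4.45, 4.58 and 4.34 against 5.15, 4.74 and 4.95 (0.49, SE 0.12). Sh3rf2 was at −3.62, −3.50 and −3.36 against −2.64, −3.10 and −2.33 (0.81, SE 0.20). In these 3 genes the groups did not overlap. Rgs9, a brake on G protein signalling in striatal neurons, was 0.66 higher (SE 0.23), Rarb 0.44 (SE 0.14) and Six3 0.46 (SE 0.12), with vehicle replicate 3 above BPA replicate 2 for Rgs9.

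The level of the striatal list varied within groups as well as between them. Its median was −0.34, −0.11 and −0.03 on the vehicle arrays and 0.33, −0.06 and 0.25 on the BPA arrays, so BPA replicate 2 lay inside the vehicle range. In males the same genes went the other way, with 4 of 27 higher after BPA and a median of −0.21. Rgs9 was at 3.42, 3.58 and 3.04 in vehicle males and at 2.99, 3.06 and 3.03 in BPA males. The sex difference had an unadjusted p under 0.05 for 16 of the 27 members (2.19% of all genes) and passed for 0; it was 13 members without BPA male replicate 3. For Drd1 it was 0.56 (SE 0.15, limma unadjusted p 0.00423, adjusted p 1.00) and for Rgs9 0.98 (SE 0.29, limma unadjusted p 0.0071). How much tissue from beneath the cortex each sample held was not measured, and its part in these differences was not tested.

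**Figure D3:**
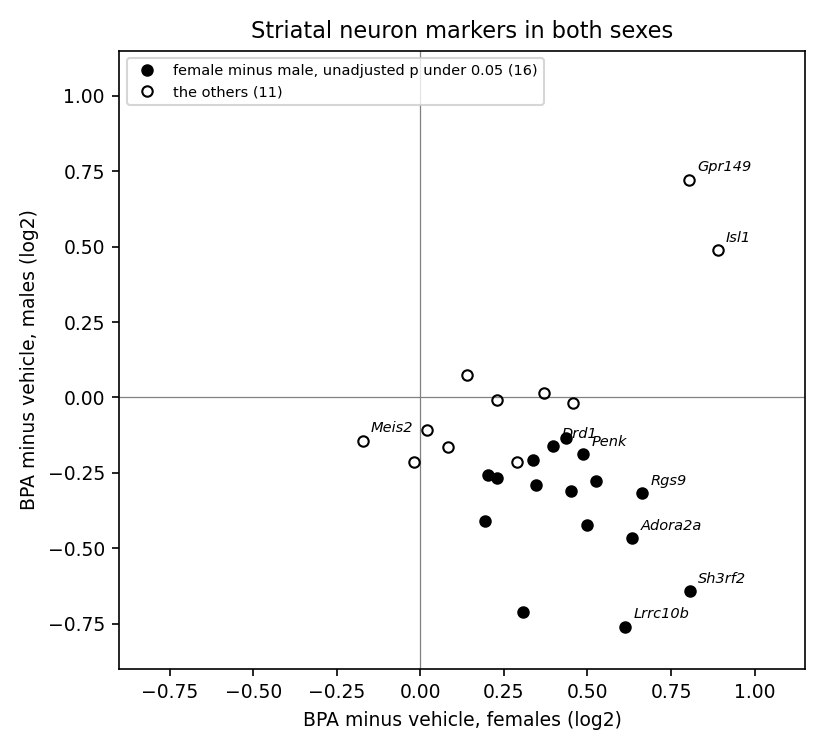
Log2 difference, BPA minus vehicle, in females (horizontal axis) against males (vertical axis) for the 27 striatal neuron markers measured; filled points are the 16 whose female minus male difference had an unadjusted p under 0.05. Most points lie to the right of 0 and below 0, while Isl1 and Gpr149, picked out after their values were seen, are higher in both sexes.

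Markers of regions next to the cortex set vehicle replicate 3 apart from the other arrays. The genes of this paragraph were chosen after their values were seen, apart from those of the hypothalamic, thalamic and olfactory list as a whole, whose median level was 0.22, 0.17 and −1.03 on the vehicle arrays and 0.24, −0.04 and −0.00 on the BPA arrays. Cdhr1, a cadherin of olfactory bulb output neurons, was at 1.91, 1.95 and −3.36 in vehicle females and at 0.53, −0.88 and −1.16 in BPA females. Eomes, a transcription factor of the same neurons, was at 0.51, 0.61 and −5.80 against −0.87, −2.77 and −3.01, and its probe was not above background on vehicle replicate 3. Th, the rate-limiting enzyme of dopamine synthesis, was at 2.79, 2.87 and 0.19 against 1.83, 0.91 and 0.72. The hypothalamic peptide Oxt was at −1.68, 0.52 and −3.77 against −0.02, 0.54 and 0.35. Vehicle replicate 3 was the lowest array for all of these, and vehicle replicates 1 and 2 the highest for Cdhr1, Eomes and Th.

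Rapid immediate early genes followed a similar order of arrays. Their median level was 0.49, 0.67 and −0.63 on the vehicle arrays and 0.16, −0.18 and −0.57 on the BPA arrays. Of 31 measured, 29 were lower after BPA by any amount (47.4% of all genes were). Groups did not overlap for 0 of the 31 (11.7% of all genes), and 9 were higher without vehicle replicate 1. Fos was at 2.13, 2.13 and −0.33 against 1.89, 1.30 and 0.02, a difference of −0.23 (SE 0.81) that turned to 0.18 without vehicle replicate 1 and was −1.05 without vehicle replicate 3. Arc, which regulates synaptic receptors, was at 5.48, 5.59 and 3.38 against 5.53, 4.17 and 3.22 (−0.51, SE 0.81), and the transcription factor Npas4 at 2.64, 2.91 and 0.85 against 2.94, 2.18 and 0.96 (−0.11, SE 0.71). Without vehicle replicate 1 Arc was at −0.18 and Npas4 at 0.15, and without vehicle replicate 3 at −1.23 and −0.75. Vehicle replicate 3 and BPA replicate 3 were the 2 lowest arrays for Fos, Arc and Npas4, so the range within each group was larger than the difference between them. The stress-induced Atf3 was at −1.59, −1.62 and −4.41 against −3.25, −4.07 and −4.58 (−1.43, SE 0.83; −2.36 without vehicle replicate 3). Jun alone had an unadjusted p under 0.05 (−0.35, SE 0.13), with overlapping groups.

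The list's median difference of −0.33 rested on which vehicle array was kept. It was −0.74 without vehicle replicate 3, −0.13 without vehicle replicate 1, −0.11 without vehicle replicate 2, −0.61 without BPA replicate 1 and −0.13 without BPA replicate 3. A cAMP response element, TGACGTCA, was in the 250-base stretch of 4 of 25 members with an entry and of 1.77% of all genes. Delayed activity-regulated genes, transcribed later after firing, had a median of −0.02 over 22, with the granule protein Vgf at 0.09 (SE 0.05).

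**Figure D4:**
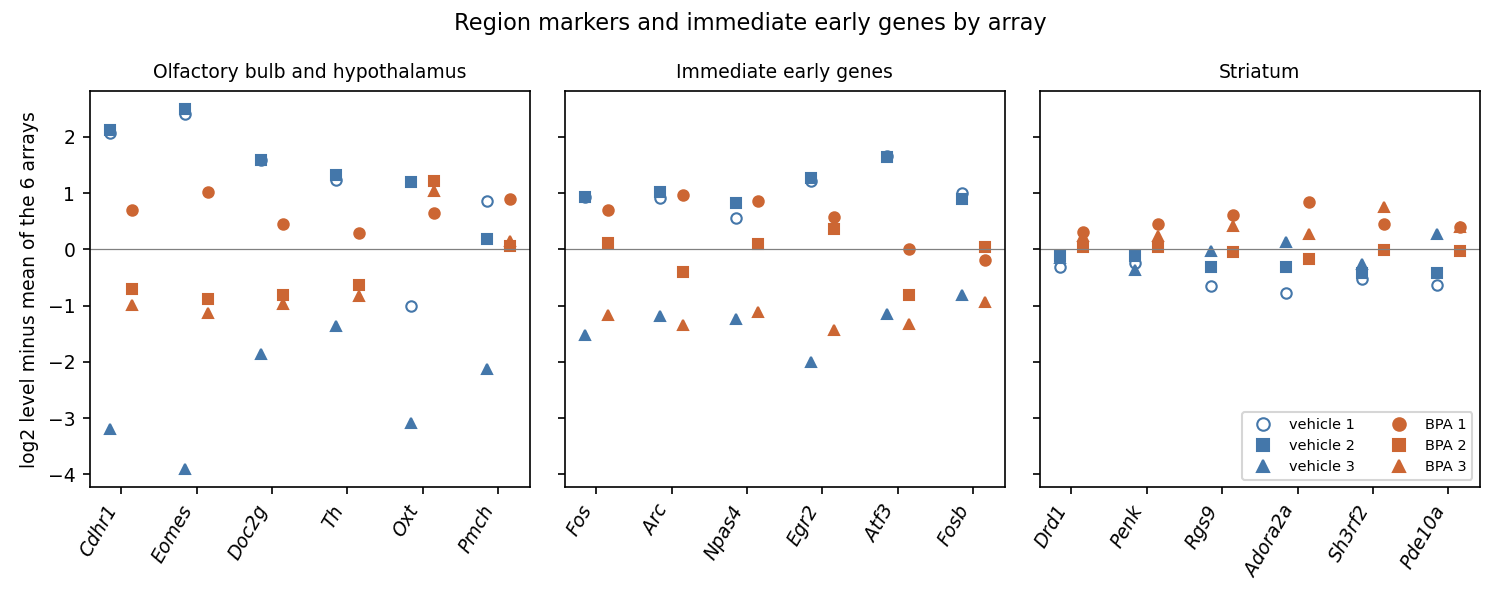
Log2 level on each female array minus the gene's mean over the 6 arrays (vertical axis), for olfactory bulb and hypothalamic markers, immediate early genes and striatal markers, chosen after their values were seen; blue marks vehicle, with replicate 1 open, and orange BPA. Vehicle replicate 3 (blue triangles) is the lowest array for the 6 genes of the first panel, and low with BPA replicate 3 for the immediate early genes.

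Meningeal and fibroblast markers were higher in 23 of 24 cases after BPA (52.6% of all genes were). Of these, 9 did not overlap (7.08% of all genes were higher without overlap). Foxc1, a transcription factor of the meninges, was at −0.30, −0.32 and −0.52 against 0.01, 0.12 and −0.01 (0.42, SE 0.08). Its difference was 0.46 without vehicle replicate 1 and 0.35 without vehicle replicate 3. The proteoglycan Bgn was at −1.79, −1.52 and −1.65 against −1.23, −1.32 and −1.30 (0.37, SE 0.08). Foxd1, a factor of pericyte and meningeal lineage, was at −2.98, −3.26 and −3.71 against −2.65, −2.53 and −2.91 (0.62, SE 0.20; 0.42 without vehicle replicate 3). Igfbp2 was at 0.20 (SE 0.08) and the anion transporter Slc22a6 at 0.35 (SE 0.14), or 0.13 and 0.23 without vehicle replicate 3.

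Vehicle replicate 3 was again the low array, with a list level of −0.46 against 0.03 and 0.03 on the other vehicle arrays and 0.18, 0.13 and 0.10 on the BPA arrays. The median of 0.26 became 0.09, with 16 of 24 higher, without vehicle replicate 3, and 0.33 without vehicle replicate 1. Choroid plexus markers showed the same more strongly: 13 of 14 were higher with a median of 0.26, which was 0.00 with 7 of 14 higher without vehicle replicate 3 and 0.55 without vehicle replicate 1. That list stood at −0.80 on vehicle replicate 3 and between −0.05 and 0.41 on the other 5 arrays. The border macrophage receptor Mrc1 was 0.32 higher (SE 0.10), and 0.24 without vehicle replicate 3. Oligodendrocyte and myelin genes leaned the other way, at −0.18 and −0.22 on vehicle replicates 1 and 2 and 0.28 on vehicle replicate 3. Their median difference of 0.08 was 0.24 without vehicle replicate 3, 0.00 without vehicle replicate 1 and −0.02 without vehicle replicate 2. The amount of meninges or plexus left on each sample was not measured, and its part in these differences, and in those of the vascular lists, was not tested.

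Globin genes were lower after BPA in every copy measured, without passing the test. Of the 10 erythrocyte genes measured, 5 did not overlap and were lower (4.67% of all genes). The list's median was −0.57 (−0.56 without vehicle replicate 1). The alpha globin gene Hba-a2 was at 8.30, 8.63 and 8.13 against 7.88, 7.94 and 7.36 (−0.62, SE 0.20), and the heme enzyme Alas2 at 0.31, 0.64 and −0.04 against −0.23, −0.31 and −0.90 (−0.78, SE 0.24). Without vehicle replicate 1 the differences were −0.65 for Hba-a2 and −0.78 for Alas2. Hba-a1 (−0.63), Hbb-b2 (−0.70) and Hbb-bt (−0.68) stood alike, but the globin copies are so similar that their probes cannot be taken as separate measurements. The membrane protein Slc4a1 was at −0.51 (SE 0.25), and Fech, Slc25a37, Tspo2 and Car1, like Slc4a1 named after their values were seen, were between −0.00 and 0.04. In males the same 10 genes had a median of −0.60. How much blood each sample held was not measured.

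**Figure D5:**
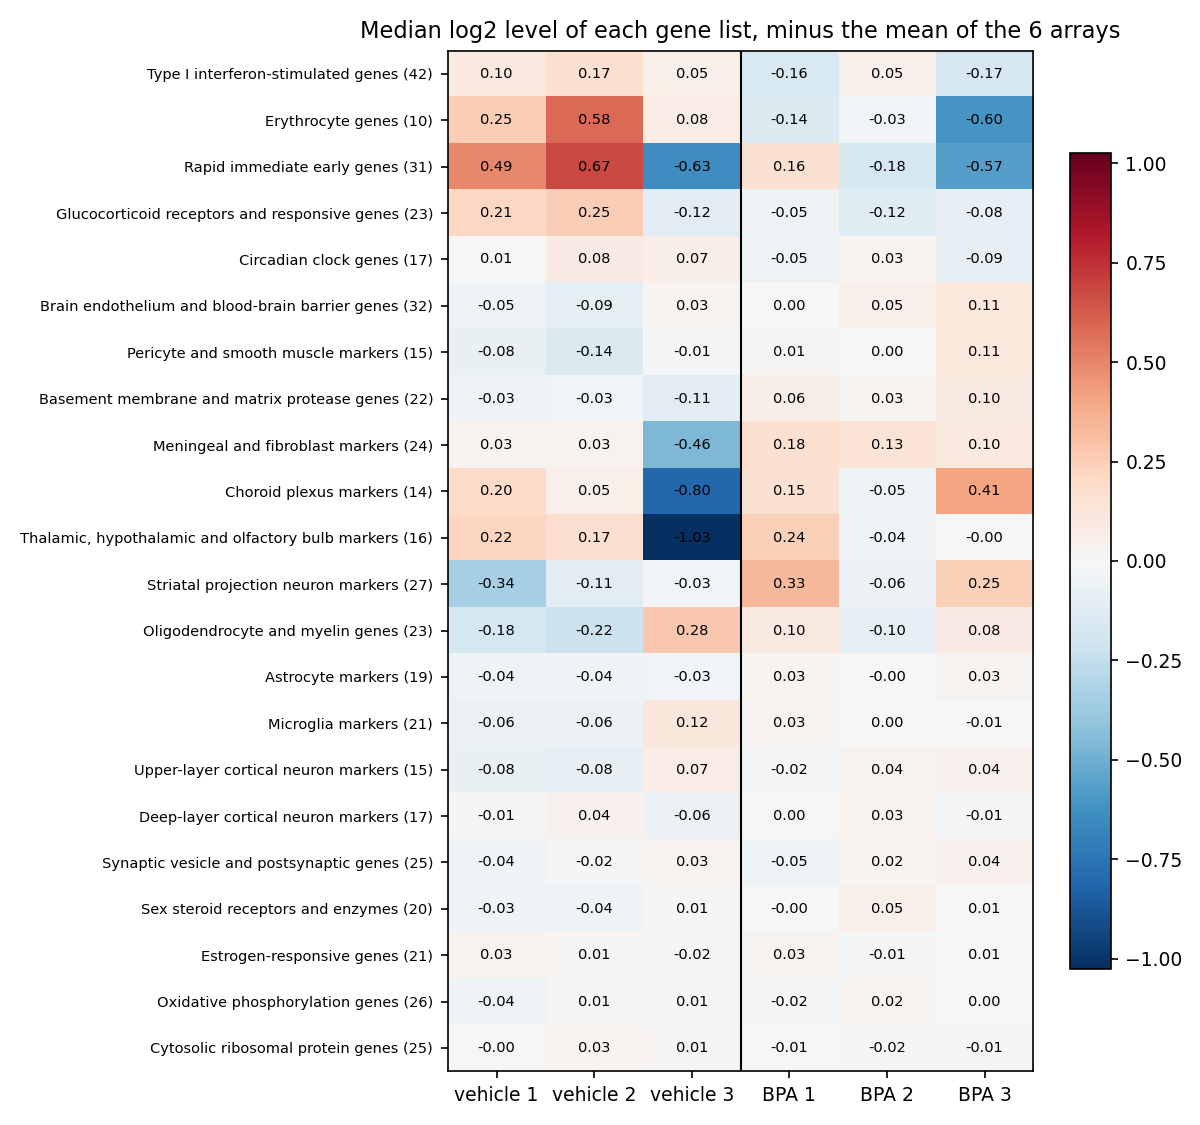
Median log2 level of each gene list on each female array, after subtracting each gene's mean over the 6 arrays (colour and printed value); the number of genes measured stands in brackets and the line parts vehicle from BPA. Vehicle replicate 3 has the lowest cells of the map, −1.03 for thalamic, hypothalamic and olfactory markers and −0.80 for choroid plexus. The oxidative phosphorylation and ribosomal protein lists at the foot run from −0.045 (vehicle replicate 1) to 0.027.

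The remaining lists had medians close to 0, but counts in some departed from those of all genes. Of 25 ribosomal protein genes 5 did not overlap and were lower (4.67% of all genes), and 2 did not overlap and were higher (7.08%). Of 18 unfolded protein response genes 14 were lower (47.4% of all genes were), and of 32 imprinted genes 23 were higher (52.6%). Oxidative phosphorylation genes had a median of −0.01 over 26, with Ndufb3 at 0.18 (SE 0.05), and ribosomal protein genes −0.03 over 25, with Rpl32 at 0.13 (SE 0.05). Heat shock genes had a median of 0.00 over 14, unfolded protein response genes −0.04 over 18 with Ddit3 at −0.11 (SE 0.06), oxidative stress genes −0.01 over 18 and hypoxia genes 0.00 over 16 with Ndrg1 at 0.22 (SE 0.09). Monoamine, opioid and neuropeptide receptors had a median of 0.06 over 33 (0.02 without vehicle replicate 1 and 0.03 without vehicle replicate 3), with the serotonin receptor Htr6 at 0.34 (SE 0.10; other probe −0.05) and the muscarinic receptor Chrm3 at 0.18 (SE 0.06). Imprinted genes had a median of 0.05 over 32, proliferation genes −0.03 over 18 with Ccnb1 at 0.50 (SE 0.17) and Mcm6 at 0.22 (SE 0.09; 0.14 without vehicle replicate 3), and ependymal markers −0.01 over 10. Hippocampal markers had a median of 0.08 over 11, with Lct at 0.58 (SE 0.20), but −0.02 with 5 of 11 higher without vehicle replicate 3. Lymphocyte and granulocyte markers were at 0.05 over 10 and at −0.01 without that array. Medians as near to 0 as most of these change sign with the array left out or the setting used, as they did for 28 of the 49 lists, none of which had a median farther from 0 than 0.08.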

How the data were processed

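RNA of 12 cortices was hybridised to 1-colour Agilent arrays whose scans went through Feature Extraction 10.7.3.1 of Agilent (mm9), per the file headers. The intensity values are that software's processed signal, background-subtracted and without scaling between arrays, per the file headers; mean signal and local background served an alternative. The authors' deposited series matrix holds log2 values centred per probe, as inferred from the scanner files over 39414 probes, with column medians from −0.03 to 0.02; their scale, centring and direction are not stated. From the scanner files, log2 signal minus the array's 75th percentile was taken without control and outlier spots, spots of a probe were averaged, and a probe was kept if all 3 arrays of a female group read it well above background. Each gene is its brightest probe; 56.1% of probe names matched a current symbol (RefSeq names, GRCm38.p6). Probe positions are those of the array files, which give no exon or UTR. Females were fitted alone with limma 3.58.1 in R 4.3.3 (lmFit, eBayes, 4 residual degrees of freedom, two-sided, Benjamini-Hochberg adjustment, threshold 0.05), and the sex difference over all 12 arrays. The number of arrays limits precision. The groups came from different dams, and the main fit did not pair them by replicate number. Deviations of same-numbered arrays correlated at 0.222, 0.0767 and 0.141, against −0.187 to 0.0418 for the other pairs. What same-numbered arrays had in common was not tested. The script was tested on simulated data. Lists are described by counts and medians, with no set test. Members and the 50 lists were chosen with earlier results of these data known; 1 list, the Y-linked genes, had no tested member. Named are 15 genes per direction of smallest p with a symbol and no overlap, up to 6 members per list with p under 0.05 (or the 2 smallest), and fixed receptor, X-linked, chromatin and activity genes; any other is said to be chosen later. Some genes of the rule are not reported here. Alternatives were other scaling, background, filters, probes, arrays, weights, moderation and the authors' values. Figures used matplotlib 3.10.9 in Python 3.11.15. Differences between litters and between arrays cannot be separated.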

Additional observations from a re-analysis of the deposited data

How the results depend on the processing

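No gene passed in females under any alternative run: quantile normalisation, normexp, no filter or one requiring all 6 arrays, probes tested singly, 12 or 11 arrays, the replicate number as a block, trend with robust moderation, array weights, the authors' values and each array left out in turn; the smallest adjusted p ranged from 0.0592 (trend and robust) to 0.996 (normexp without vehicle replicate 1, chosen after seeing the data, like the authors' values without it). The fit with the replicate block called 0 genes, and the interaction called 0 with the replicate number as a block across the sexes (the labels do not say that it marks littermates), without BPA male replicate 3 and without vehicle female replicate 1. Each array left out gave 0 calls. Of 2785 values of named genes under alternatives 2776 were counted as unchanged. For genes without overlap or with a limma unadjusted p under 0.05, this required only the same sign, whatever the size. For the other genes it required a move within the replicate spread. Of 882 list medians 829 moved by no more than the replicate spread. Sign changes of any size were 42 among the gene values, in 18 genes, and 82 among the list medians, in 28 of 49 lists. Fos, Arc and Npas4 were among these genes. Genes with an unadjusted p under 0.05 numbered 860 in the fit of 12 arrays and 3136 without vehicle replicate 3, against 1550.

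The list medians that changed sign by more than the spread were all near 0. With 1 array left out in turn, astrocyte markers ranged from −0.00269 to 0.0716, deep-layer cortical neuron markers from −0.0335 to 0.0389, enzymes and readers of DNA methylation from −0.00767 to 0.0182, interferon receptors, sensors and kinases from −0.0478 to 0.0142, microglia markers from −0.0407 to 0.0814 and X-linked intellectual disability genes from −0.00417 to 0.0280. Without vehicle replicate 1, the authors' values gave −0.00667 for astrocyte markers, −0.0267 for deep-layer cortical neuron markers and 0.0133 for enzymes and readers of DNA methylation, the last of which stood at 0.00505 with array weights. Normexp without that array gave −0.0356 for the deep-layer list, 0.0101 for the DNA methylation list, −0.0489 for heat shock genes, −0.0206 for monoamine, opioid and neuropeptide receptors and −0.00357 for X-linked intellectual disability genes. Kdm5c was at −0.0133 in the authors' values. The cause of these changes was not tested.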
